A study of Mus musculus with 6 samples.

Results

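The genes described here are 10 transcripts that are widely read as signs of stress in the endoplasmic reticulum (ER), the compartment in which secreted and membrane proteins are folded. They were taken by gene symbol (Hspa5, Hsp90b1, Dnajb9, Sdf2l1, Creld2, Herpud1, Atf4, Ddit3, Trib3 and Chac1) from a table of 31319 genes, and all 10 were found and passed the filter on low counts. The libraries hold polyadenylated RNA of the main olfactory epithelium of male C57BL/6 mice aged 5 months, with 3 libraries of a miR-200b/a knockdown (KD-1 to KD-3) and 3 of the group called NC (NC-1 to NC-3). The labels do not say how or in which cells the knockdown was made, or what NC mice received. Values of a group are listed by replicate number. Nothing in the labels ties each library to a mouse of its own, and p-values reflect only how far these libraries differ, a spread that may be technical.

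When unfolded proteins build up in the ER, sensors in its membrane switch on the unfolded protein response. IRE1 (gene Ern1) splices the mRNA of the transcription factor XBP1, ATF6 is cut to release a transcription factor, and PERK (gene Eif2ak3) phosphorylates the initiation factor eIF2-alpha, which lowers translation in general and raises that of ATF4. ATF6 and XBP1 drive chaperone and degradation genes, while ATF4 drives amino acid and death genes such as Ddit3, which encodes CHOP. Cells that secrete heavily, plasma cells and gland cells among them, run parts of this program at rest, and in olfactory sensory neurons PERK and the factor ATF5 are known to act when the first odorant receptor protein is made.

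The libraries differed in cell type markers, and these differences touch the values below. Total counts ran from 15704791 to 17618540. Summed counts per 1000000 (CPM, scaled by TMM factors) of 11 mature olfactory neuron markers were 3546, 72.8 and 4412 in the KD libraries, against 11989, 8955 and 7505 in those of NC, so that the markers which define the labelled tissue were nearly lost in KD-2. Those of 10 plasma cell markers were 38894, 74064 and 31299.6 in KD and 5848, 24531 and 45664 in NC. Markers of 4 other cell types differed as well. Summed CPM of 6 horizontal basal cell markers, the reserve stem cells of the epithelium, ran from 689 to 1084 in KD and from 219 to 520.2 in NC, and all 6 genes were higher in KD with no overlap, beside 15.3% of all tested genes. For 7 macrophage markers the sums ran from 282 to 484 and from 107 to 243, with 4 genes higher without overlap. Sustentacular markers, 6 genes of the supporting cells, summed to 972 to 8632 in KD and 9485 to 12993 in NC, with 5 genes lower without overlap, beside 18.6% of all. For 8 markers of Bowman and nasal glands the sums overlapped, at 33325 to 67600.4 in KD and 19665 to 96143 in NC. The gene Bpifb9b alone held 76416 of the 96143 CPM in NC-1 and 19066 of the 67600.4 CPM in KD-2, so these sums do not stand for the list. Of the 8 genes, 4 were higher in KD without overlap and 0 lower. None of the markers of these 6 lists was at 0 counts in any library, and their part in the values below was not tested beyond the 2 covariate fits given there. In bulk tissue, fewer cells of a type and less RNA per cell cannot be told apart.

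No ER stress gene passed the test of KD against NC. With edgeR's quasi-likelihood test and Benjamini-Hochberg adjustment over 18444 tested genes, 0 of the 10 had an adjusted p under 0.05, against 0% of all genes tested. DESeq2 called 0 of the 10 and 1.89% of the genes to which it gave an adjusted p. At an unadjusted p under 0.05 there was 1 of 10, Trib3, against 17.9% of all genes. The KD and NC values overlapped for all 10, whereas 33.9% of all tested genes had groups that did not overlap. The fitted log2 fold change was above 0 for 7 genes and below 0 for 3, with a median of 0.36, beside 0.01 over all tested genes. On the chaperone and degradation side 5 of 6 genes stood above 0. Of the 4 genes on the ATF4 side, Atf4 and Chac1 stood above 0 and Ddit3 and Trib3 below.

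**Figure D1:**
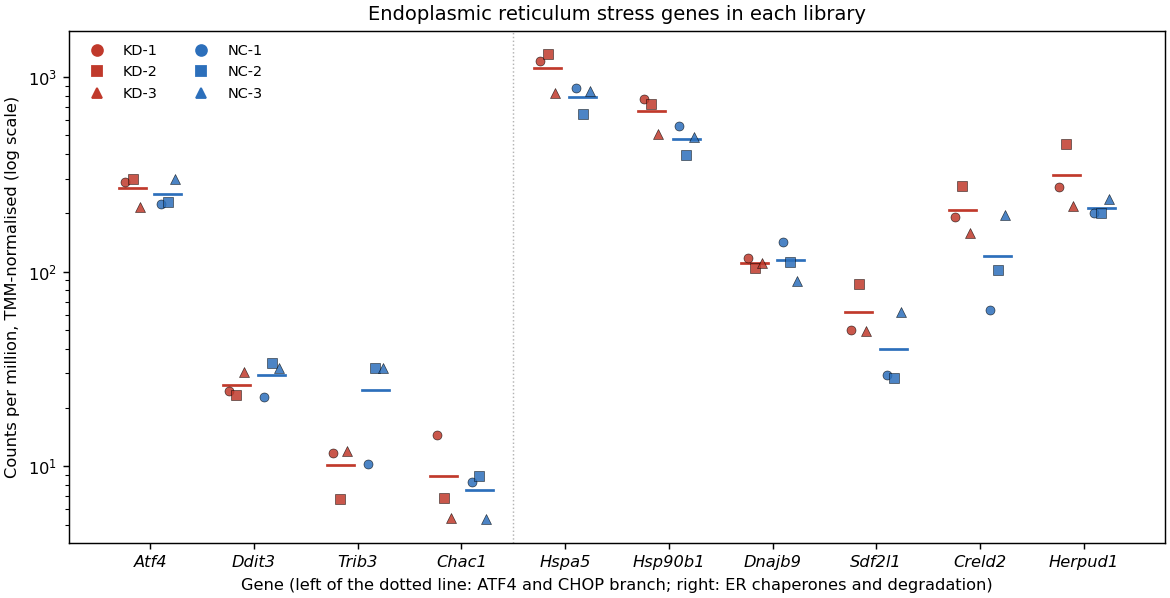
CPM on a log axis for the 10 genes, a symbol per library (red for KD, blue for NC, its shape for the replicate number), and a horizontal bar for the mean of 3. Trib3 lies near 32 CPM in NC-2 and NC-3 and at 11.9 CPM or below in the other 4 libraries, and every gene has overlapping groups.

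The ER chaperones Hspa5 and Hsp90b1 were the most abundant of the 10 and varied together from library to library. Hspa5 encodes BiP, the ER Hsp70 that binds unfolded proteins and holds the sensors inactive (ENSMUSG00000026864, chromosome 2, 34771970 to 34777547, build GRCm38). Its level was 1213, 1303 and 828 CPM in the KD libraries, against 878, 646 and 842 CPM in those of NC. KD-1 and KD-2 lay above every NC library, while KD-3 lay below NC-1 and NC-3. The log2 fold change of KD over NC was 0.50 (SE 0.277, 95% interval -0.17 to 1.17, adjusted p = 0.336 by edgeR). Hsp90b1 encodes GRP94, the ER member of the Hsp90 family (ENSMUSG00000020048, chromosome 10, 86690209 to 86705509). It stood at 766, 723 and 506 CPM in KD and 557, 397 and 489.99 CPM in NC, again with KD-1 and KD-2 on top and KD-3 among the NC libraries. Its log2 fold change was 0.47 (SE 0.254, interval -0.15 to 1.08, adjusted p = 0.33).

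The ratio of Hspa5 to Hsp90b1 counts was nearly fixed. It was 1.58, 1.80 and 1.64 in the KD libraries, against 1.58, 1.63 and 1.72 in those of NC, so the highest ratio was 1.14 times the lowest, although the CPM of each gene ranged 2.02-fold and 1.93-fold across the libraries. Likeness to Hspa5 was measured as the root mean square difference of log2 CPM, each gene centred on its mean over the 6 libraries. By that measure Hsp90b1 (0.0679) was closer than any other of the 10, Herpud1 being next at 0.225. Among 11439 other genes with a mean of at least 10 CPM, Itpripl1 (0.0448), the nucleolar GTP-binding protein gene Gnl3 (0.0601) and the predicted gene Gm6136 (0.072) were the nearest. Since the 6 libraries differ in depth and cell type markers, a likeness of profiles over them is a description only.

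The element through which the response is known to act was looked for in the promoters of the 10 genes. The ER stress response element (ERSE) was first described in chaperone promoters, those of Hspa5 and Hsp90b1 among them, so its presence there is background and not a result. Promoters from RefSeq (GRCm38.p6, 250 bases before to 50 after the annotated start) were found for all 10 genes. They were searched on both strands for the ERSE, written as CCAAT and CCACG with 9 bases of any kind between them, and for ERSE-II, written as ATTGG and CCACG with 1 base between them. Both contain the CCAAT box, the second in reverse. The ERSE was in 3 of the 10 promoters and in 0.119% of 32851 promoters in the table. ERSE-II was in 1 of the 10, Herpud1, and in 0.0365% of all. The matches are shown on the strand of the gene with 15 bases on either side and the matched letters in capitals, because they mark which of the 10 carry the element and where.
Hspa5, chr2:34772010-34772058, plus strand: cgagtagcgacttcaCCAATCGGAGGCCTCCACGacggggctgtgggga
Hsp90b1, chr10:86705623-86705671, minus strand: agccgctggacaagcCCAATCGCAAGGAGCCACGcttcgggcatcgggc
Hsp90b1, chr10:86705518-86705566, minus strand, reverse orientation: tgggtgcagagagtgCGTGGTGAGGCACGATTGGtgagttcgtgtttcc
Creld2, chr15:88819505-88819553, plus strand, reverse orientation: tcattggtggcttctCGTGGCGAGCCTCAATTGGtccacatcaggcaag
Herpud1 (ERSE-II), chr8:94386362-94386402, plus strand: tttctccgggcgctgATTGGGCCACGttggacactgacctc
In Hspa5 the match begins 65 bases before the RefSeq start, and Hsp90b1 holds 2 matches, beginning 212 and 107 bases before its own. These starts differ from those of the gene positions given above, within which the Hspa5 match lies. The UPRE core TGACGTGG was in 0 of the 10 windows and in 0.676% of all. No match says only that these letters are absent from the window.

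Creld2 and Sdf2l1, 2 ER-resident proteins, varied more between libraries than the chaperones. Creld2, a secreted and ER-retained protein induced by ER stress (ENSMUSG00000023272, chromosome 15, 88819646 to 88826683), stood at 190, 274 and 157 CPM in the KD libraries, against 63.4, 101 and 196 CPM in those of NC. NC-3 exceeded both KD-1 and KD-3, and NC-1 was the lowest of the 6. In the fit this was a log2 fold change of 0.78 (SE 0.444, interval -0.29 to 1.86, adjusted p = 0.341 by edgeR). Sdf2l1, a partner of ER Hsp40 chaperones (ENSMUSG00000022769, chromosome 16, 17130138 to 17132383), stood at 49.9, 86.3 and 49.3 CPM in KD and 29.2, 28.5 and 62.1 CPM in NC. Here too NC-3 exceeded 2 of the KD libraries. Its log2 fold change was 0.63 (SE 0.392, interval -0.32 to 1.58, adjusted p = 0.372). Leaving out a library moved both values in either direction. Creld2 was at 1.33 without NC-3, 0.48 without NC-1 and 0.24 without KD-2 and NC-1 together. Sdf2l1 was at 1.10 without NC-3, 0.34 without KD-2, 0.40 without NC-2 and 0.15 without KD-2 and NC-1 together.

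Creld2 ordered the libraries exactly as the summed CPM of the plasma cell markers did. From highest to lowest, both ran KD-2, NC-3, KD-1, KD-3, NC-2, NC-1, an order shared by 1 of the 10 genes and by 1.42% of 18434 other tested genes. It was noticed after the values were seen. Sdf2l1 differed from it only in NC-1 and NC-2, which were 29.2 and 28.5 CPM. The sum was mostly Igkc and Igha (46569 and 20339 of 74064 CPM in KD-2), and not every marker shared its order. By the median of the markers relative to the NC mean, KD-1 (0.76 on the log2 scale) stood above NC-3 (0.64). With the mean level of the plasma cell markers as a covariate, the log2 fold change was 0.13 for Creld2, 0.15 for Sdf2l1, 0.31 for Herpud1, 0.50 for Hspa5, 0.55 for Hsp90b1 and 0.27 for Dnajb9. With that of the mature neuron markers in its place, it was 0.33, 0.11, 0.01, 0.29, 0.36 and 0.06 in the same order of genes. For the ATF4 side the plasma cell covariate gave -0.11 for Atf4, -0.34 for Ddit3, -1.74 for Trib3 and 0.44 for Chac1, and the neuron covariate gave -0.07, -0.07, -0.99 and 0.51. Since Creld2 and Sdf2l1 were singled out for their likeness to the plasma cell markers, their lower values with that covariate are a description, and each fit had few residual degrees of freedom.

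**Figure D2:**
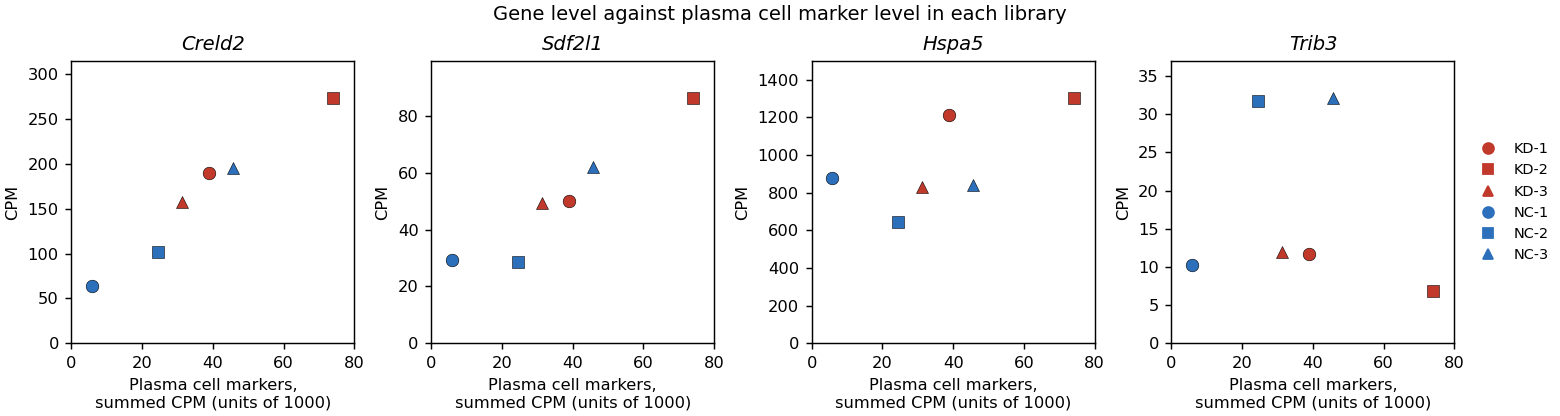
CPM of Creld2, Sdf2l1, Hspa5 and Trib3 in each library (linear axes from 0) against the summed CPM of 10 plasma cell markers in units of 1000 CPM, red for KD and blue for NC. Creld2 runs from 63.4 CPM in NC-1 to 274 CPM in KD-2 in the order of the summed markers, while Trib3 is lowest in KD-2, where the sum is highest.

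Herpud1 and Dnajb9 serve the disposal of misfolded proteins. Herpud1 encodes a membrane protein of the ER-associated degradation complex (ENSMUSG00000031770, chromosome 8, 94386438 to 94395377). It stood at 273, 453 and 217 CPM in the KD libraries, against 201, 201 and 236 CPM in those of NC. KD-2 stood far above the rest, and KD-3 lay below NC-3. In the fit the change was 0.57 on the log2 scale (SE 0.299, interval -0.16 to 1.29, adjusted p = 0.323 by edgeR) and 0.23 without KD-2 (0.19 without KD-2 and NC-1 together). Dnajb9 encodes ERdj4, an ER Hsp40 that acts with BiP and is a known XBP1 target (ENSMUSG00000014905, chromosome 12, 44205559 to 44210326). Its level was 118, 104 and 111 CPM in KD and 142, 112 and 89.1 CPM in NC, so that the NC libraries lay on both sides of all 3 KD libraries. The log2 fold change was -0.04 (SE 0.199, interval -0.52 to 0.44, adjusted p = 0.906), and without NC-1 it was 0.15. The 3 KD values of Dnajb9 lay within 1.13-fold of each other, the tightest of any gene and group here.

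Atf4, the transcription factor of the PERK branch, was close to level between groups. It stood at 289, 299 and 214 CPM in the KD libraries, against 221, 228 and 299.8 CPM in those of NC (ENSMUSG00000042406, chromosome 15, 80255184 to 80257541). KD-3 was the lowest library and NC-3 the highest. The log2 fold change was 0.10 (SE 0.218, interval -0.43 to 0.63, adjusted p = 0.791 by edgeR), and it ran from 0.01 to 0.25 over the fits without a single library. ATF4 is controlled in large part at translation, which RNA levels do not measure. Of all tested genes, 84.1% ranged further across the 6 libraries than Atf4, which ranged 1.40-fold.

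Ddit3, which encodes the death-linked factor CHOP, was also within the spread. It stood at 24.5, 23.3 and 30.6 CPM in the KD libraries, against 22.6, 33.9 and 32.0 CPM in those of NC (ENSMUSG00000025408, chromosome 10, 127290774 to 127296288). KD-3 sat with NC-2 and NC-3, and NC-1 was the lowest. Its log2 fold change was -0.18 (SE 0.208, interval -0.68 to 0.33, adjusted p = 0.61), and it ran from -0.34 to -0.08 over the fits without a single library. The gene overlaps Mars on the opposite strand and another gene model named Ddit3 that was not analysed here, and no source used here states the strand setting of the counting, so its counts may miss or share reads. The same limit holds for 3 others of the 10. Hsp90b1 overlaps Gm15344 on the same strand and 1810014B01Rik on the opposite one. On the opposite strand, Herpud1 overlaps Gm15890 and Dnajb9 overlaps Mir5627. The nearest profiles to Ddit3 by root mean square difference were those of Pifo (0.0686), the cilia gene Tekt1 (0.0706) and Acbd6 (0.0748). Among the 10, whose number is far smaller, the nearest was Atf4 at 0.348.

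Trib3, a pseudokinase induced by ATF4 and CHOP, had the largest fold change of the 10 and the only one below 0 by more than its 95% interval. Raw counts were 201, 89 and 216 in the KD libraries, against 167, 622 and 573 in those of NC (ENSMUSG00000032715, chromosome 2, 152337422 to 152344032). In CPM it stood at 11.7, 6.82 and 11.9 in KD and 10.3, 31.8 and 32.1 in NC. NC-1 fell among the KD libraries, and the other 2 NC libraries stood apart at nearly the same level. The log2 fold change was -1.28 (SE 0.478, interval -2.44 to -0.12, unadjusted p = 0.0351, adjusted p = 0.276 by edgeR). The authors' deposited table gives -1.30 with an unadjusted p of 0.0134. Over the fits without a single library the fold change ran from -1.65 (without NC-1) to -1.04 (without KD-2). NC-1 had the highest neuron marker level and the lowest plasma cell marker level of the 6, and KD-2 the lowest and the highest. Trib3 was at 10.3 and 6.82 CPM in these 2 libraries.

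Trib3 and Ddit3 ordered the libraries alike but for exchanges of neighbours at the top and the bottom. Both were highest in NC-2 and NC-3, followed by KD-3 and KD-1, and lowest in NC-1 and KD-2. How many other genes come as near to this order was not counted. Trib3 ranged 4.71-fold across the libraries and Ddit3 1.503-fold. By root mean square difference Trib3 stood at 0.643 from Ddit3, further than Atf4 at 0.348. The ratio of Trib3 to Ddit3 counts was 0.480, 0.293 and 0.389 in the KD libraries, against 0.456, 0.937 and 1.004 in those of NC. The ratio of Trib3 to Atf4 counts was 0.0407, 0.0228 and 0.0556 in KD and 0.0465, 0.139 and 0.107 in NC. In each ratio NC-1 stood with the KD libraries and the groups overlapped.

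Chac1, an enzyme that degrades glutathione and a target of ATF4, was high in a single library. Raw counts were 248, 90 and 98 in the KD libraries, against 134, 175 and 95 in those of NC (ENSMUSG00000027313, chromosome 2, 119351229 to 119354381). That is 14.5, 6.89 and 5.40 CPM in KD and 8.26, 8.94 and 5.33 CPM in NC. KD-1 stood above the other 5 libraries, and KD-2 and KD-3 lay within the NC range. The log2 fold change was 0.25 (SE 0.437, interval -0.81 to 1.31, adjusted p = 0.732 by edgeR), and without KD-1 it was -0.29. Set against Trib3, another ATF4 target, counts of Chac1 per count of Trib3 were 1.23, 1.01 and 0.454 in KD and 0.802, 0.281 and 0.166 in NC.

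A site for C/EBP and ATF factors, through which ATF4 is known to act, was searched as TGATGCAA on both strands. It was in the promoters of Chac1 and Herpud1, 2 of the 10, and in 0.895% of all promoters. Both matches lie in reverse orientation on the strand of the gene, and they are shown to mark where the site lies. Trib3 and Ddit3 had 0 matches, which says only that these letters are absent from the window. Whether the site acts in these libraries was not tested.
Chac1, chr2:119351034-119351071, plus strand: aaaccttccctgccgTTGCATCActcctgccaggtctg
Herpud1, chr8:94386302-94386339, plus strand: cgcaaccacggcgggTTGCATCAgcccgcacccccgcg
Chac1 was highest in KD-1 and lowest in NC-3, while Herpud1 was highest in KD-2 and lowest in NC-2.

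**Figure D3:**
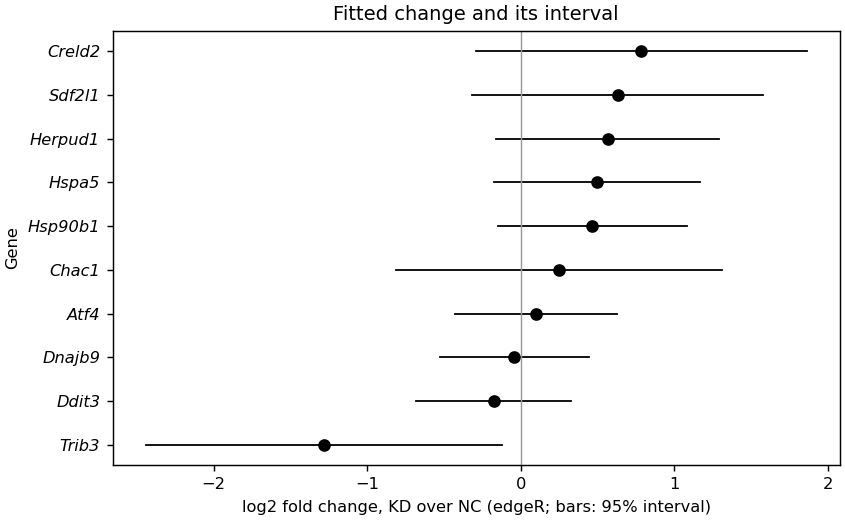
Fitted log2 fold change of KD over NC for the 10 genes (points, edgeR) with its 95% interval, not adjusted for the number of genes tested (bars), ordered by size. The interval of Trib3 runs from -2.44 to -0.12, and those of the other 9 genes include 0.

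Expressed per kilobase of annotated exon, Hspa5 and Hsp90b1 led in both groups, and the order of several others differed between KD and NC. Hspa5 was the highest, at 264 ± 59.6 CPM per kilobase in KD and 187 ± 29.5 for NC (SD of 3 libraries), and its 3 values lay above those of the next gene, Hsp90b1, in either group. Hsp90b1 (165 ± 34.6 and 119 ± 20.0), Creld2 (152 ± 43.9 and 87.9 ± 49.8), Herpud1 (135 ± 52.8 and 91.1 ± 8.66) and Atf4 (113 ± 19.7 and 106 ± 18.5) followed in this order in KD. In NC the order was Hsp90b1, Atf4, Herpud1 and Creld2, and neighbours overlapped in either group. Sdf2l1 (55.8 ± 19.1 and 36.0 ± 17.3) and Dnajb9 (43.6 ± 2.59 and 44.8 ± 10.4) came next, in this order in KD and the reverse in NC, and overlapped in both groups. Ddit3 stood at 15.2 ± 2.29 and 17.2 ± 3.55 CPM per kilobase. Trib3 and Chac1 were the lowest, Trib3 at 4.78 ± 1.36 and 11.6 ± 5.88 and Chac1 at 5.45 ± 2.97 and 4.59 ± 1.17. Chac1 lay above Trib3 in KD and below it in NC, with overlapping values in each.

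The transcripts were searched for matches to the seeds of the knocked-down microRNAs. The mature sequences, from RefSeq (GRCm38.p6), are shown with the seed, bases 2 to 8, in capitals, since the seed is the stretch that pairs with target messages. The 2 seeds differ, so each was searched on its own.
mmu-miR-200b-3p: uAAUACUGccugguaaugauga
mmu-miR-200a-3p: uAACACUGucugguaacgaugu
A single 3′ UTR was searched per gene, the longest in the annotation. The match to the miR-200b seed, CAGTATT, occurred in 0 of the 10 genes and in 14.9% of 15786 tested genes. The match to the miR-200a seed, CAGTGTT, occurred in 1 of the 10, Dnajb9, and in 19.7% of tested genes. It lies at base 1064 of a UTR of 1395 bases, on the minus strand at chr12:44205883-44205905, shown with the match in capitals.
Dnajb9: ttacaacctgatcttCAGTGTTg
The UTRs searched ran from 81 bases in Atf4 to 1434 in Hspa5, beside a median of 1175 over tested genes, and 8 of the 10 were shorter than that median. With 10 genes these counts are near the background. Dnajb9, the gene with the match, had a log2 fold change of -0.04. A match of letters is a description and not evidence of a site in use.

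Other genes of the pathway were read from 6 lists, together with a list of heat shock genes of other compartments. No gene of these lists passed the edgeR threshold. Among 13 tested sensors and transcription factors, 3 were higher and 1 lower in KD at an unadjusted p under 0.05, against 8.70% and 9.25% of all tested genes. Their median log2 fold change was 0.14. Xbp1, the factor activated by IRE1, stood at 1020.0, 1611 and 921 CPM in the KD libraries, against 325, 547 and 716 CPM in those of NC, with no overlap, as for 15.3% of tested genes in that direction. Its log2 fold change was 1.16 (SE 0.387, adjusted p = 0.276). These are levels of all Xbp1 RNA, since gene counts do not separate the spliced form. The other 2 were Ern2, the IRE1 form of mucous epithelia, at 1.71 ± 0.403 CPM against 0.890 ± 0.137, and Creb3l4, an ER-bound factor, at 20.2 ± 3.14 against 13.4 ± 0.759 (SD, KD before NC, n = 3 each). The lower gene was Atf5, the factor of the olfactory neuron response, named after its values were seen, at 327, 64.2 and 387 CPM in KD and 821, 677 and 753 CPM in NC. Like the mature neuron markers, it was lowest in KD-2. The sensors themselves, Ern1, Atf6 and Eif2ak3, had log2 fold changes of 0.26, 0.10 and 0.14 and overlapping groups.

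The remaining folding enzymes of the ER leaned the same way as Hspa5 and Hsp90b1. Of 19 tested chaperones and folding enzymes, 18 had a fitted log2 fold change above 0, against 50.6% of all tested genes, with a median of 0.47. At an unadjusted p under 0.05, 3 were higher, against 8.70% of all tested genes. With no overlap, 5 were higher in KD and 1 lower, against 15.3% and 18.6% of all. The lower gene was Creld1, named after its values were seen. The disulfide isomerase genes Pdia4 (314 ± 77.6 CPM in KD, 172 ± 60.7 in NC) and Pdia6 (339.6 ± 29.0 and 227 ± 51.8) and the oxidase gene Ero1l (105 ± 32.4 and 56.8 ± 14.5) had the smallest p. The list's median level relative to the NC mean, on the log2 scale, was 0.44, 0.62 and 0.15 in the KD libraries, against -0.06, -0.14 and 0.12 in those of NC. KD-1 and KD-2 carried the difference, and KD-3 was close to NC-3. Genes of ER-associated degradation (12 of 16 above 0, median log2 fold change 0.35) showed the same order of KD libraries, with 2 higher at an unadjusted p under 0.05, Ube2j1 (129 ± 30.9 and 90.1 ± 4.98 CPM) and Ube2g2 (38.8 ± 7.35 and 24.8 ± 7.51), both ubiquitin-conjugating enzymes. Derl1, of the degradation channel, stood at 138 ± 24.2 and 102 ± 15.8 CPM. Genes of ER translocation and signal peptide cleavage had 15 of 16 above 0 (median 0.30). Of these Sec11c, a signal peptidase subunit (184 ± 57.9 and 110.3 ± 18.0 CPM), was higher at an unadjusted p under 0.05, while the translocon-associated genes Ssr4 (134 ± 50.8 and 81.6 ± 32.7) and Ssr3 (383 ± 60.0 and 306 ± 17.003) were not. Plasma cell, horizontal basal cell and macrophage markers were highest in KD-2, as were the medians of these 3 lists. The median level of the horizontal basal cell markers relative to the NC mean was 1.09, 1.48 and 0.79 on the log2 scale in KD, and that of the macrophage markers 0.92, 1.42 and 0.40, by replicate number. The gland gene Muc5b, a secreted mucin, was picked after its values were seen. It stood at 3208, 3613 and 2658 CPM in KD and 950.5, 1668 and 1625 CPM in NC (DESeq2 adjusted p = 0.0174, edgeR adjusted p = 0.276). Muc5b does not stand for its list. Of the 8 gland markers, 5 had a fitted log2 fold change above 0 and 3 below, namely Bpifb9b, Obp1a and Obp2a. The summed CPM of the 8 was highest in NC-1, at 96143, of which Bpifb9b made up 76416. The part of these cell types in the lists was not tested.

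**Figure D4:**
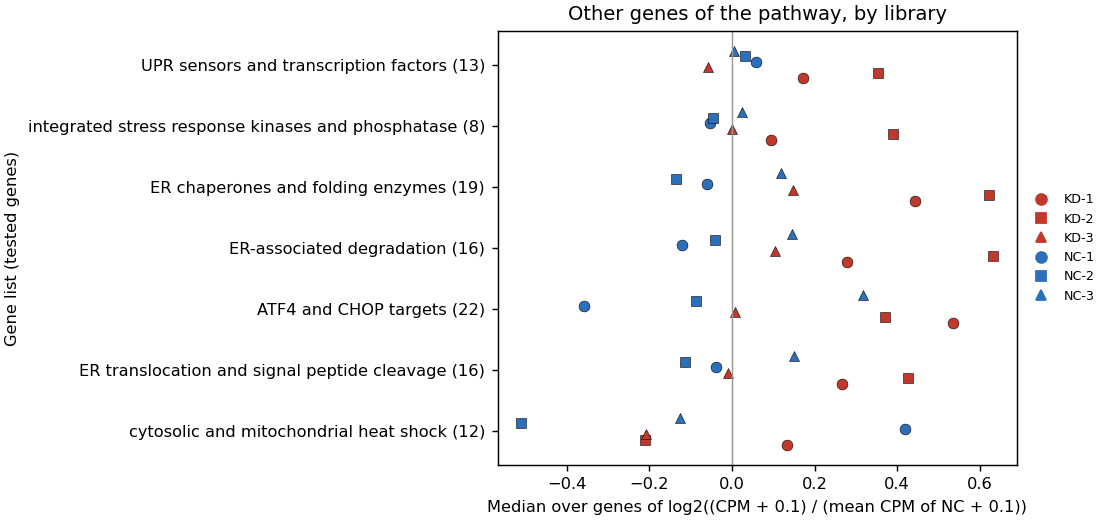
Each point is a library's median, over a list's tested genes, of the log2 difference from the NC mean (0.1 CPM added to each value), with KD in red, NC in blue and the number of tested genes in brackets. KD-1 and KD-2 lie above all NC libraries in the lists of chaperones (0.44 and 0.62) and degradation (0.28 and 0.63), and KD-3 lies near NC-3.

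The targets of ATF4 and CHOP had fitted values in both directions. Of 22 tested, 15 had a fitted log2 fold change above 0 and 7 below, with a median of 0.36, and at an unadjusted p under 0.05 there were 3 higher and 2 lower, close to the shares of all tested genes (8.70% and 9.25%). Slc7a11, the cystine transporter of cells short of cysteine, stood at 148, 121 and 122 CPM in the KD libraries, against 22.3, 39.1 and 58.2 CPM in those of NC, or 1.71 as a log2 fold change (SE 0.352, edgeR adjusted p = 0.276, DESeq2 adjusted p = 0.00439). The groups lay well apart. Atf3, a stress-induced factor, stood at 37.4 ± 13.2 and 11.3 ± 8.504 CPM, and Ero1l, given above, is the third. On the low side were Cebpg, a partner of ATF4 (105 ± 28.6 and 182 ± 52.7 CPM), and the alanine transaminase gene Gpt2 (44.8 ± 19.4 and 90.0 ± 27.8). Atf3 and Gpt2 were named after their values were seen. Asns, asparagine synthetase and a common readout of ATF4, stood at 73.2, 56.7 and 36.7 CPM in KD and 108, 41.9 and 36.3 CPM in NC and was likewise picked afterwards. Trib3, low in all KD libraries and as low in NC-1, stood beside a list whose members went in both directions.

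Genes of eIF2-alpha, its kinases and its phosphatases mostly had fitted values above 0. Of 8 tested, 7 were above 0, against 50.6% of all tested genes, with a median log2 fold change of 0.16. At an unadjusted p under 0.05 by edgeR, 1 was higher, against 8.70% of all tested genes. That was Eif2ak2, PKR, the kinase that senses double-stranded RNA (39.6 ± 5.34 CPM in KD and 28.8 ± 2.98 in NC). Its log2 fold change was 0.46, and its groups did not overlap, as for 15.3% of tested genes in that direction. Eif2s1, eIF2-alpha itself, stood at 51.3 ± 9.87 and 39.7 ± 3.56 CPM, and the phosphatase subunit gene Ppp1ca at 160.2 ± 22.1 and 134 ± 12.4. Ppp1r15a, the CHOP-induced subunit that reverses the block on translation, was picked after its values were seen as the readout of that loop, and its log2 fold change was 0.00 (99.7 ± 12.3 and 99.6 ± 21.2 CPM).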

How the data were processed

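The authors deposited 1 table of raw counts per gene and library. Per the file headers, further columns give the authors' mean normalised signal, log2 fold change and unadjusted p-value. Build GRCm38 and the tools HTSeq 0.6.0, HISAT2 2.1.0, Bowtie2 2.2.3, TopHat2, DESeq and DESeq2 are named in the submitters' processing notes, without roles. No source used here gives the annotation release or strand setting. Counts were tested with edgeR 4.0.16 (R 4.3.3) with TMM factors, its default filter, the quasi-likelihood test without covariates, and Benjamini-Hochberg adjustment over 18444 genes at a threshold of 0.05, two-sided. Standard errors are the fold change over the root of F. In DESeq2 1.42.0, 54 genes had no adjusted p. Alternatives also included limma-voom (limma 3.58.1). The scripts were tested on simulated counts. The pass condition was set at a smaller spread than these data had, so it says nothing on detection here. The depth was 15704791 to 17618540 counts per library. Counting error was not separated from the spread between libraries, and some named genes had few counts, such as Ern2 with 12 to 37. Positions and exon lengths are from GENCODE M21 (GRCm38), in which 31251 gene IDs were found.

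The 10 genes, the lists and the markers were chosen with earlier results of these data known, so no p is adjusted over a list. Several lists share genes. From each pathway list the 3 genes with the smallest p were named, and the 3 nearest profiles were named for Hspa5 and Ddit3. The 2 most abundant markers are named for the plasma cell and mature neuron lists only. Other genes are marked as named after their values were seen. The plasma cell list holds Igkc and Igha and the neuron list Omp and Stoml3 as the most abundant.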

Additional observations from a re-analysis of the deposited data

How the results depend on the processing

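Each of the 10 log2 fold changes was recomputed under 14 alternatives, and 0 of the 140 values passed the adjusted threshold (smallest adjusted p = 0.138). Direction was kept under all 14 by 7 genes, and 9 values reversed. Dnajb9, at -0.04, became 0.06 with the mature neuron markers and 0.27 with the plasma cell markers as a covariate, and 0.21 without KD-2 and NC-1 together. It ran from -0.19 to 0.15 over the fits without a single library, with 0.03 without KD-2. Atf4 became -0.07, -0.11 and -0.05 under the same 3 settings. Chac1 ran from -0.29 to 0.52 over the fits without a single library. The cause was not tested. The number of all genes past the threshold, 0 in edgeR (3310 at an unadjusted p under 0.05), was 347 in DESeq2 and 3 without KD-2 and NC-1 together, and 0 in each fit without a single library and in limma-voom. The labels do not say whether replicate numbers pair the libraries. Deviations of same-numbered libraries correlated at 0.305, 0.101 and -0.257, and those of differently numbered libraries at -0.355 to 0.349. So few correlations cannot settle whether the libraries were paired. Under the replicate block 0 genes and 0 of the 10 passed, and Trib3 was at -1.17. The number of libraries, 3 a group, limits what could be called.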

Other observations

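Heat shock genes of the cytosol and mitochondria, which answer to a different factor than the ER genes, had their highest summed level in NC-1. Of 12 tested, 4 had a fitted log2 fold change above 0 (50.6% of all tested genes) and 8 below, with a median of -0.10. At an unadjusted p under 0.05 by edgeR, 1 was higher and 0 lower, against 8.70% and 9.25% of all tested genes. Of the 12, 0 passed edgeR's adjusted threshold. Their summed CPM was 7460 in NC-1, 3041 and 3456 in the other NC libraries and 4549.5, 3432 and 3466 in KD. Hspa1b, an inducible Hsp70, has a near-identical copy, Hspa1a, that can share its reads. By replicate number, Hspa1b stood at 49.5, 81.1 and 36.0 CPM in KD against 26.8, 18.5 and 27.8 CPM in NC. Its groups did not overlap, as for 15.3% of tested genes in that direction (log2 fold change 1.19, SE 0.334, adjusted p = 0.276 by edgeR). Hspa1a, picked after its values were seen, had overlapping groups. It stood at 5.43, 7.28 and 4.80 CPM in KD and 0.740, 1.99 and 7.46 CPM in NC. Dnajb1, the Hsp40 partner of Hspa1b, stood at 66.2 ± 14.99 and 45.7 ± 12.1 CPM (SD, n = 3 each). Hsp90aa1, the inducible cytosolic Hsp90, was at 1735 CPM in NC-1 and between 456 and 850.0 CPM in the other 5 libraries. Hsp90b1, its ER relative, was at 557 CPM in NC-1, inside its range in KD.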
